A study of Mus musculus with 30 samples.

Results

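The kinesins and the centromere proteins were taken as every gene whose single annotated symbol begins with Kif and a number, or with Cenp and a letter. Of 17097 genes with a symbol of their own on the arrays, 58 met the rule, and each was read through its brightest probe set, by the mean of the 30 arrays. The 58 comprised 11 mitotic kinesins, 14 transport kinesins, 12 other kinesins and 21 centromere proteins. RNA was measured in CD4+ and CD11c+ cells of DO11.10 RAG2-/- BALB/c mice aged 8 to 10 weeks, in 5 treatment groups with 3 arrays for each cell type. All mice lacked RAG2 and carried the DO11.10 transgenic T cell receptor, so that their CD4+ T cells recognise an ovalbumin (OVA) peptide. The first group was primed subcutaneously with 100 µg OVA in complete Freund's adjuvant (CFA) per mouse and given abatacept, a fusion of CTLA4 with immunoglobulin that blocks T cell costimulation, at 10 mg/kg. The second was primed in the same way and given a control IgG at 10 mg/kg. The remaining groups were orally tolerised with OVA in the drinking water, primed without further treatment, or unimmunised. No subcutaneous OVA dose was listed for the tolerised mice. Priming and treatment therefore cannot be told apart where tolerised mice are set against groups given that dose. Cells were taken 10 days after immunisation, CD4+ cells by negative magnetic selection and CD11c+ cells with CD11c microbeads, each at a stated purity over 90%. The source of CD4+ cells differed: axillary nodes with abatacept, control IgG or priming alone, mesenteric nodes with oral tolerance, and a pool of nodes and spleen without immunisation. Tissue and treatment therefore cannot be told apart in comparisons across these. For CD11c+ cells, nodes and spleen were pooled in each of the 5 groups. Between the cell types, tissue therefore differed in all groups but the unimmunised, and cell type and tissue cannot be told apart in those groups. The labels do not say whether the 3 samples of a group came from different mice, and p-values therefore cover the spread between samples alone, which may be technical.

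Kinesins are motor proteins that use ATP to walk along microtubules or to take them apart. Mitotic kinesins build the spindle, move chromosomes and organise cell cleavage, and they are made mainly in dividing cells, whereas transport kinesins carry organelles, vesicles and proteins in cells that need not divide. Centromere proteins form the platform on which the kinetochore is built, the structure that ties a chromosome to spindle microtubules. T cells that meet their antigen together with costimulation are known to divide rapidly. Abatacept and oral tolerance both interfere with such responses, and the comparisons below ask how each class of member stood in their presence.

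Promoter letters were read for the members with an entry in the RefSeq promoter table (build GRCm38.p6, 250 bases before to 50 bases after the transcription start). There were 59 windows for 52 of the 58 members. No entry was held for Kif5a, Kif5b, Kif13b, Kif20a, Kif21b and Kif28. The CHR (cell cycle genes homology region) element, known from promoters of genes expressed late in the cell cycle, was searched as TTTGAA or TTCGAA on both strands, so that TTCAAA on the printed strand is also a match, and the CCAAT box as CCAAT on both strands, read as ATTGG on the other. Matches were counted whether or not they shared letters. A CHR match lay in 9 of 10 mitotic kinesin windows (90%), 6 of 24 centromere protein windows (25%), 1 of 12 transport kinesin windows (8.33%) and 3 of 13 windows of other kinesins (23.1%), against 6316 of all 32851 windows in the table (19.2%). Shares with CCAAT were 60%, 70.8%, 33.3% and 38.5% in the same order, against 37.4% of all windows. Both motifs stood together in 60% of mitotic kinesin windows, 25% of centromere protein windows, none of the transport kinesin windows and 23.1% of the others, against 7.52% of all. Among the mitotic kinesins, Kif18a lacked a CHR match in this window. The centromere proteins with one were Cenpa, Cenpf, Cenpl, Cenpm, Cenpn and Cenpw.

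The windows of 6 genes are printed in lower case with the matches in capitals, because these genes carry the contrast between mitotic and transport members described below. Kif22 (chr7:127042371-127042670, minus strand), Kif11 (chr19:37376132-37376431, plus strand), Cenpf (chr1:189688037-189688336, minus strand) and Cenpe (chr3:135212313-135212612, plus strand) fell most in abatacept CD4+ cells. Kif16b (chr2:142901415-142901714, minus strand) was the only transport kinesin called there, and Kif3b (chr2:153291166-153291465, plus strand) was not called. All are 5′ to 3′ on the strand of the gene.
Kif22: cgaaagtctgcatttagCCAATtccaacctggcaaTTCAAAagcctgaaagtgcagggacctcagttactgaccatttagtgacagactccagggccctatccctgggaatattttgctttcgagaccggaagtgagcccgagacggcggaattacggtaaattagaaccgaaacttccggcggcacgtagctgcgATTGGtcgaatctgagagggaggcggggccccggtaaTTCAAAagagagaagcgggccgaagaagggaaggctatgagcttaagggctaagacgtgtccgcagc
Kif11: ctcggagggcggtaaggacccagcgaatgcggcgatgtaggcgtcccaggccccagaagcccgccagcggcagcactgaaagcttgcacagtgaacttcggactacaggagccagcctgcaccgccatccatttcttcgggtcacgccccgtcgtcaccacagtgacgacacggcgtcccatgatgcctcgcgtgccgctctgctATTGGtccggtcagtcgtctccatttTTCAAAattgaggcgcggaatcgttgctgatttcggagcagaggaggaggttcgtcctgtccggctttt
Cenpf: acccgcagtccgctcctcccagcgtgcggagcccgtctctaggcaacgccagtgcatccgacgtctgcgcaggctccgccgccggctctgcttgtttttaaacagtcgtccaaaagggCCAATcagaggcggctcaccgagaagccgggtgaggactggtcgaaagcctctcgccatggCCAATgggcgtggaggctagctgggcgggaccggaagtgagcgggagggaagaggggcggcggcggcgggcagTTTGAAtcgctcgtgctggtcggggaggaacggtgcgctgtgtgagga
Cenpe: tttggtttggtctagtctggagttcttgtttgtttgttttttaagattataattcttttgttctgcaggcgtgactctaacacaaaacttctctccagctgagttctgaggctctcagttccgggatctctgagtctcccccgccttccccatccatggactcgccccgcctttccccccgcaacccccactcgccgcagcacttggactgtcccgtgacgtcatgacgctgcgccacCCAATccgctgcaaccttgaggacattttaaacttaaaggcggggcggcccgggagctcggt
Kif16b: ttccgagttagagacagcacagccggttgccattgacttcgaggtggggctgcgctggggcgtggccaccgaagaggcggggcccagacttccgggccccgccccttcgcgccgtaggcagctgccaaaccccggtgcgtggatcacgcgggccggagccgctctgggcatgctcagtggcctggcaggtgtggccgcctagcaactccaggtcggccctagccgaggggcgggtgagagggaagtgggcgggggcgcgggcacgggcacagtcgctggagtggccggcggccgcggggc
Kif3b: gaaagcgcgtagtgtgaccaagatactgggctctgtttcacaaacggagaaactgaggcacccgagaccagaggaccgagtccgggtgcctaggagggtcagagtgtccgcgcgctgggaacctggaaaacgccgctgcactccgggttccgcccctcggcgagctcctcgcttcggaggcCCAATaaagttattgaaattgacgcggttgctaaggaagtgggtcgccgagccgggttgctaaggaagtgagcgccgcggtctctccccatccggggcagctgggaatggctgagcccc
Counted from the transcription start, TTCAAA began at -17 and -215 in Kif22 and at -19 in Kif11, and ATTGG stood upstream of it at -54 in Kif22 and at -45 in Kif11. In Cenpf, TTTGAA began at 3 and CCAAT at -71 and -132. The Cenpe window held CCAAT at -12 and the Kif3b window held it at -69, neither with a CHR match, and the Kif16b window held neither motif. Cenpe and Cenpf, which both fell in abatacept CD4+ cells, differed in these letters.

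Expression values were log2 values on arrays whose medians lay between 4.46 and 4.54, and a value below the array median is not shown to be above background. A gene was tested in a cell type if it exceeded the median of 3 or more of its 15 arrays, which gave 10322 genes in CD4+ cells and 10203 in CD11c+ cells, with 45 of the 58 members in each. A member was called where limma's moderated test gave a Benjamini-Hochberg adjusted p under 0.05 over all genes tested. In bulk samples, fewer cells of a type and less RNA per cell cannot be told apart. T cell markers (8 of 9 on the arrays) averaged 10.00 to 10.35 on the CD4+ arrays of 4 groups and 8.83 to 8.95 on the unimmunised CD4+ arrays. Those 3 unimmunised arrays also stood apart in neutrophil markers (10.41 to 10.66, against 3.43 to 5.53 on the other CD4+ arrays), erythroid markers (9.46 to 9.77, against 4.78 to 5.58) and macrophage markers (8.49 to 8.75, against 3.79 to 6.05). On the CD11c+ arrays, dendritic cell markers averaged 6.76 to 8.21, T cell markers 5.53 to 7.14, erythroid markers 8.12 to 9.78 and macrophage markers 9.28 to 10.59. The marker lists held 8 neutrophil, 6 erythroid, 7 macrophage, 6 dendritic cell, 5 natural killer cell, 4 mast cell and 9 dividing cell genes on the arrays. Amy1, an amylase gene of salivary gland and pancreas, was above 7 on 5 CD11c+ arrays: control IgG replicates 2 and 3, abatacept replicate 3, tolerised replicate 3 and unimmunised replicate 2. The Y-linked Eif2s3y also split the arrays. It lay between 8.49 and 8.96 in the tolerised and primed CD4+ groups and between 2.41 and 2.76 in the other CD4+ groups. In CD11c+ cells it lay between 8.53 and 8.64 in the primed group, at 8.76, 5.92 and 8.20 in the control IgG group, and between 2.37 and 2.84 in the other groups.

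**Figure D1:**
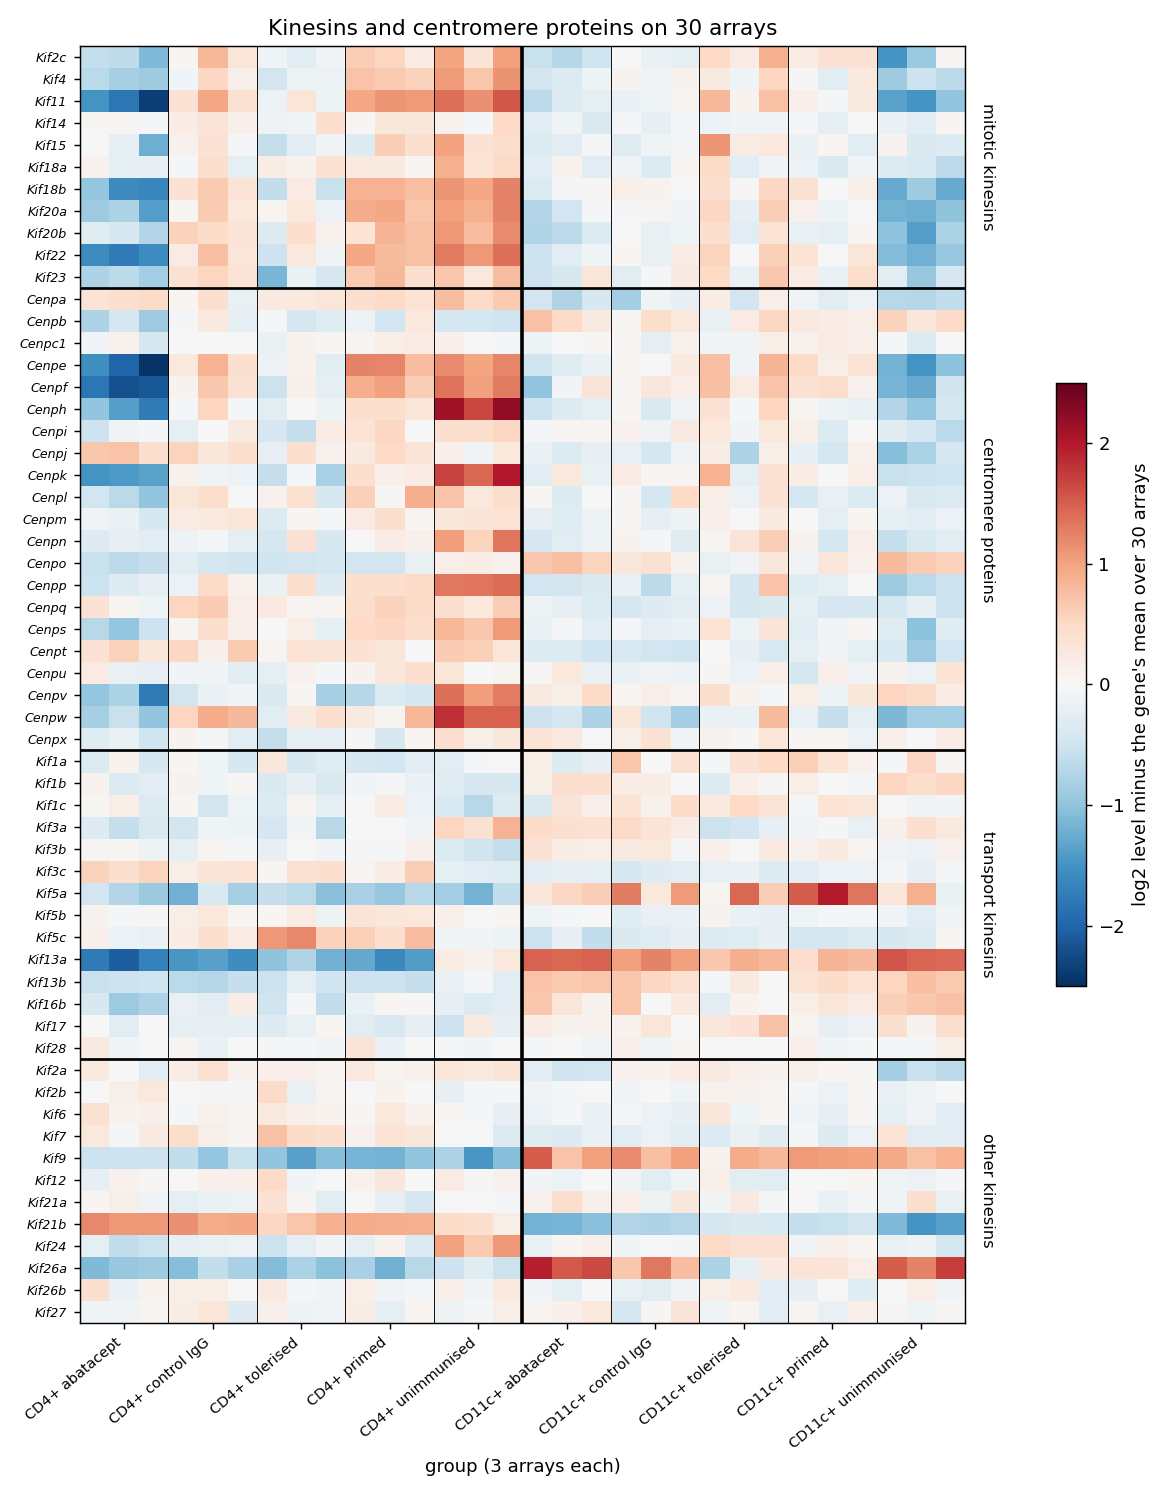
Log2 level of each of the 58 genes (rows, grouped by class) on each of the 30 arrays (columns), as the difference from the gene's mean over all arrays. CD4+ arrays stand left and CD11c+ arrays right, each in the order abatacept, control IgG, tolerised, primed, unimmunised; averaged over the mitotic kinesins, the 3 abatacept CD4+ arrays lay at -0.65, -0.81 and -1.09 and the 3 control IgG CD4+ arrays at 0.20, 0.58 and 0.20.

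In CD4+ cells, mitotic kinesins were lower with abatacept than with the control IgG, and most transport kinesins were not called. Of 9 mitotic kinesins tested, 8 were lower and none was higher, with a median log2 difference of -1.18. Of 20 centromere proteins tested, 9 were lower and none was higher (median -0.41). Of 11 transport kinesins 1 was lower (median -0.11), and none of 5 other kinesins was called (median -0.16). Over all 10322 genes 16.7% were called, 3.33% higher and 13.4% lower, with a median of -0.07. The 3 abatacept arrays all lay outside the range of the control IgG arrays for 8 of the 9 mitotic kinesins, 11 of the 20 centromere proteins and 5 of the 11 transport kinesins, against 36.7% of all genes.

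Kif11, the motor that pushes spindle poles apart, had log2 levels of 5.95, 5.63 and 5.09 in abatacept cells, against 7.81, 8.42 and 7.83 in control IgG cells. Every abatacept array lay below every control IgG array, and the difference of -2.46 ± 0.21 (SE, n = 3 each) was a 5.52-fold lower level (adjusted p = 5.2e-06, limma). Kif22, a motor on chromosome arms that pushes them towards the spindle equator, had 5.81, 5.64 and 5.82 in abatacept cells, against 7.60, 8.13 and 7.69 in control IgG cells. These groups stood apart as well, by -2.05 ± 0.18 (adjusted p = 5.1e-06). Kif18b, which trims the plus ends of astral microtubules, had 4.15, 3.53 and 3.50 with abatacept, all below the array medians, against 5.48, 5.77 and 5.46 with control IgG. Its difference of -1.85 ± 0.21 (adjusted p = 4.8e-05) therefore has an abatacept side that is not shown to be above background. Motors of cell cleavage fell too. Kif20a, which brings the chromosomal passenger complex to the central spindle, had 7.20, 7.31 and 6.74 with abatacept, against 8.16, 8.74 and 8.36 with control IgG (difference -1.34 ± 0.18, adjusted p = 0.00019). Kif23, the motor subunit of centralspindlin, had 6.67, 6.78 and 6.59 with abatacept, against 7.82, 7.97 and 7.78 with control IgG (difference -1.18 ± 0.20, adjusted p = 0.0017). In both, the control IgG arrays were the higher without overlap. The remaining 3 were Kif2c, a microtubule depolymeriser at centromeres (-1.17), Kif4, a motor bound to chromosomes (-0.99), and Kif20b, a motor of late cell cleavage (-0.92). Kif15, which can act beside Kif11 on the spindle, was the 1 mitotic kinesin tested that was not called.

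**Figure D2:**
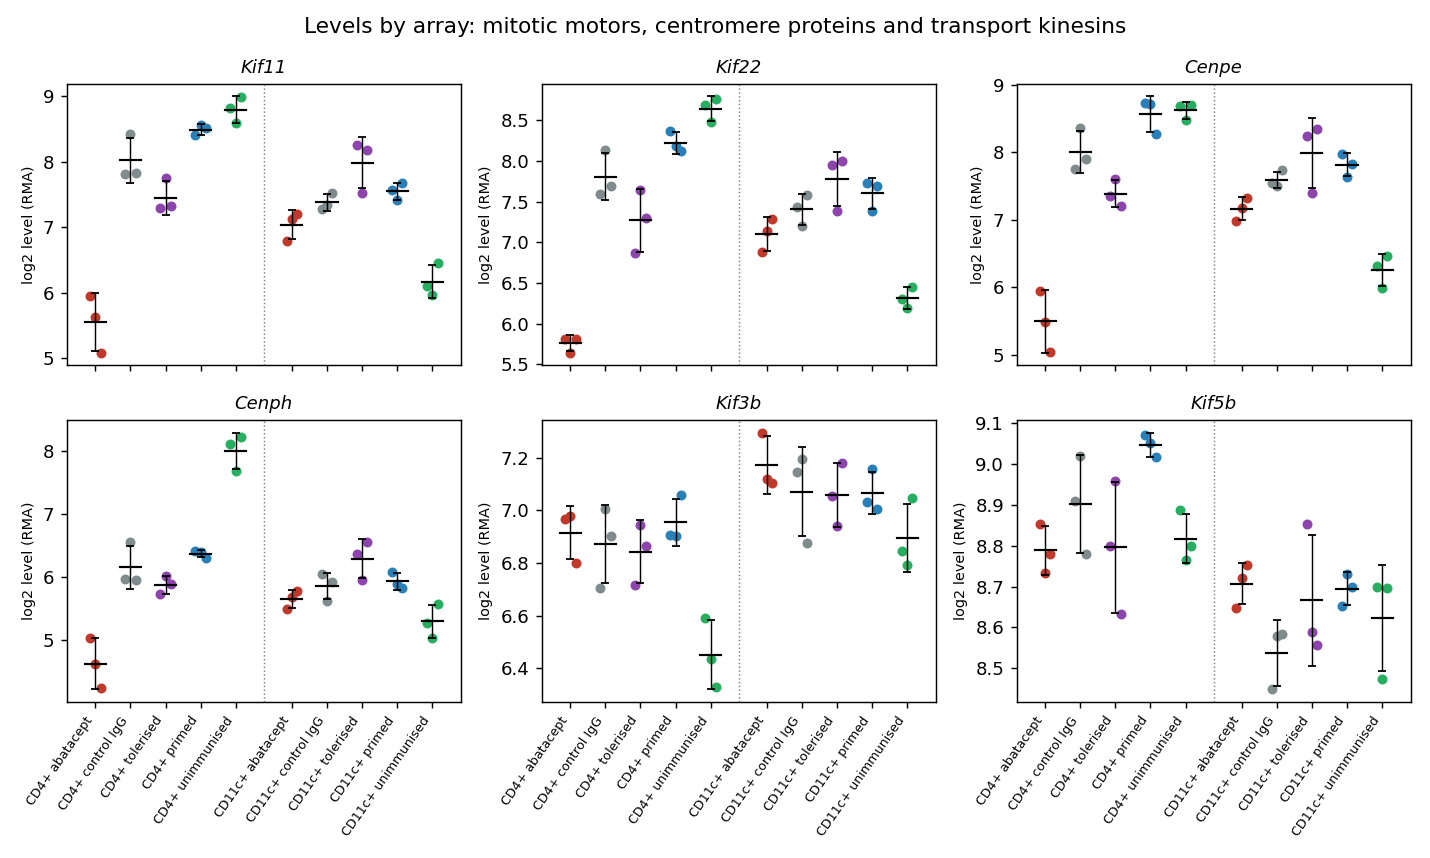
Log2 level on each array (points) with the group mean ± SD (n = 3) for Kif11, Kif22, Cenpe, Cenph, Kif3b and Kif5b, by treatment group, in CD4+ and CD11c+ cells. In CD4+ cells the mean of Kif11 was 5.56 with abatacept and 8.02 with control IgG, while that of Kif5b was 8.79 with abatacept and 8.90 with control IgG.

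Among the centromere proteins, the proteins of the outer kinetochore fell furthest. Cenpe, itself a kinesin that carries chromosomes to the spindle equator, had log2 levels of 5.95, 5.49 and 5.04 in abatacept cells, against 7.76, 8.35 and 7.90 in control IgG cells. The groups stood apart by -2.51 ± 0.22, a 5.69-fold lower level with abatacept (adjusted p = 4.9e-06). Cenpf, a large kinetochore protein known to accumulate late in the cell cycle, had 4.75, 4.37 and 4.44 with abatacept, against 6.64, 7.24 and 6.94 with control IgG. Only 1 of the abatacept arrays was above its array median, and the difference was -2.42 ± 0.19 (adjusted p = 1.9e-06).

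The other centromere proteins called showed smaller differences. Cenph and Cenpk, partners in a subcomplex of the inner centromere network, fell by 1.53 and 1.38 on the log2 scale (adjusted p = 0.00021 and 0.00017). Cenpw and Cenps, histone-fold proteins of the centromere, fell by 1.55 and 0.94. Cenpv was lower by a log2 difference of -0.94, Cenpb, which binds a box in satellite DNA, by -0.69, and Cenpm by -0.47. The calls of Cenpb and Cenpm rest on single arrays: leaving out control IgG replicate 2 or abatacept replicate 3 took the adjusted p of Cenpb up to 0.083, and leaving out control IgG replicate 3 or abatacept replicate 3 took that of Cenpm up to 0.073. Without single arrays the count of lower centromere proteins ranged from 6 to 10.

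Cenpa, the histone H3 variant that marks the centromere, did not follow them on the probe set used. It had log2 levels of 6.04, 6.11 and 6.17 with abatacept, against 5.75, 6.12 and 5.51 with control IgG (difference 0.32 ± 0.13, adjusted p = 0.11). Its other probe set differed by -0.89 and was called (adjusted p = 0.0021), and the mean of both gave -0.285, so the direction of Cenpa depends on the probe set. In CD4+ cells that other probe set was also called for tolerised minus primed (-0.67) and primed minus unimmunised (-0.54). In CD11c+ cells it was called for primed minus unimmunised (1.27). The probe set used gave -0.15, -0.23 and 0.50 there, in the same order, without a call. The used probe set of Cenpo differed by -0.19 and was not called, while 2 of its others, at -0.39 and -0.72, were.

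**Figure D3:**
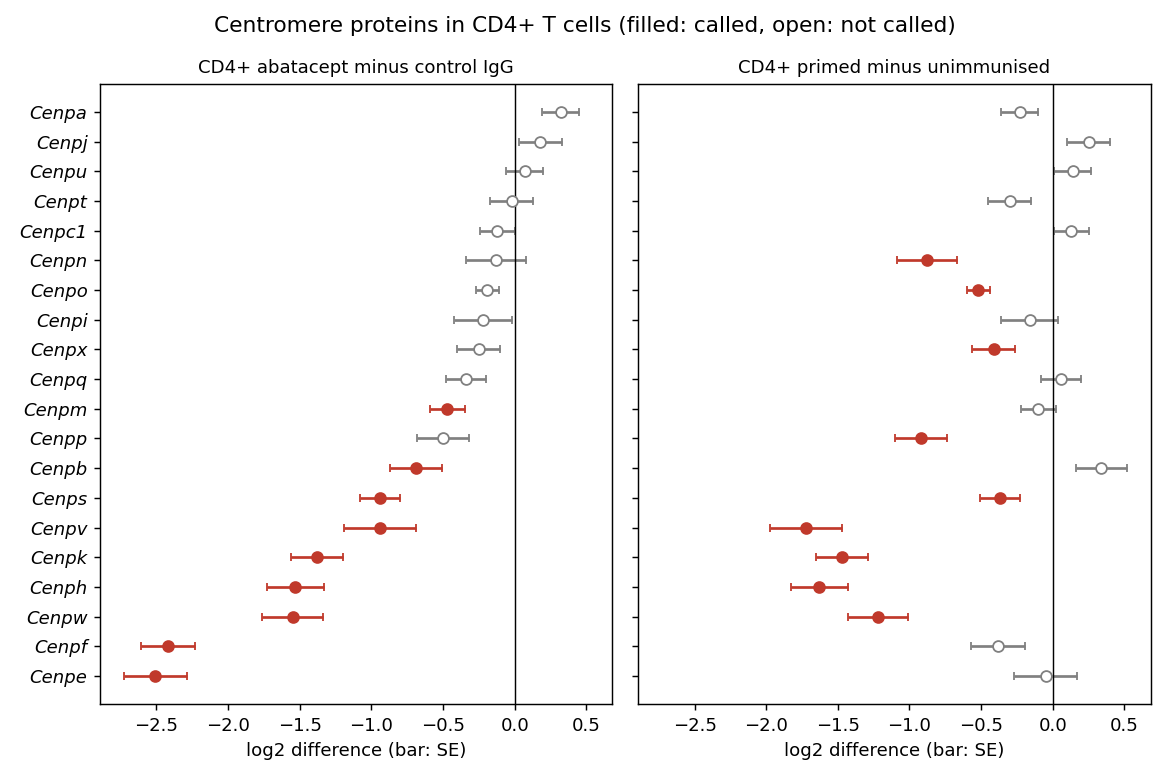
Log2 difference ± SE of the 20 centromere proteins tested in CD4+ cells, for abatacept minus control IgG and for primed minus unimmunised; filled points were called. Cenpe and Cenpf lay at -2.51 and -2.42 for abatacept minus control IgG and at -0.05 and -0.38 for primed minus unimmunised, where Cenpv and Cenph lay lowest at -1.72 and -1.63.

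The transport kinesins stayed near the median of all genes in this comparison. Kif5b, the heavy chain of conventional kinesin in most tissues, had log2 levels of 8.85, 8.73 and 8.78 with abatacept, against 8.91, 9.02 and 8.78 with control IgG. The groups overlapped at the lower edge of the control IgG arrays, and the difference was -0.11 ± 0.09 (adjusted p = 0.42). Kif3a, a subunit of the heterotrimeric kinesin that serves cilia, had 5.92, 5.65 and 5.86 with abatacept, against 5.79, 6.14 and 6.12 with control IgG (difference -0.21, adjusted p = 0.40). Kif1b and Kif13b, which move organelles and membrane cargo, differed by -0.17 and 0.13, and neither was called. The 1 call was Kif16b, a motor of early endosomes, with 4.89, 4.39 and 4.53 with abatacept, against 5.11, 5.01 and 5.49 with control IgG (difference -0.60 ± 0.17, adjusted p = 0.026). That call was lost without control IgG replicate 3, abatacept replicate 2 or abatacept replicate 3 (adjusted p up to 0.11), and its other probe set differed by -0.24 without a call. Kif21b, which restrains microtubule growth in human T cells at their contact with other cells, had 9.61, 9.47 and 9.48 with abatacept, against 9.54, 9.33 and 9.36 with control IgG, and was not called.

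The kinetochore and spindle genes outside the rule moved with the mitotic members. Of 30 such partners tested, 24 were lower and none was higher (median -1.53), among them Birc5 and Cdca8 of the chromosomal passenger complex (-2.67 and -2.73), the spindle assembly factor Tpx2 (-2.21) and the midzone bundling protein Prc1 (-1.90). Of 9 partners of transport kinesins, 1 was higher, the adaptor Mapk8ip3 (0.34), and 1 was lower, Kifbp (-0.37). General markers of dividing cells were lower for 9 of 9 tested (median -2.14). Mki67, a marker of cycling cells, averaged 8.63 ± 0.28 with abatacept and 10.77 ± 0.18 with control IgG (SD, n = 3 each). Eif2s3y was low in both groups, erythroid markers averaged 5.07 to 5.48 with abatacept and 5.05 to 5.40 with control IgG, and natural killer cell markers 6.35 to 6.51 with abatacept and 5.73 to 5.85 with control IgG, and the part of the last in these results was not tested.

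The control IgG group against the primed group asked whether the IgG injection itself moved these genes. No member was called among 45 tested, and 9 of all genes were (0.0872%, limma). At an unadjusted p under 0.05, 9 members were lower and none was higher, 4 of them mitotic kinesins and 4 centromere proteins, against 873 of all 10322 genes (8.46%) in either direction. The mitotic kinesins had a median log2 difference of -0.38. Kif11 had 7.81, 8.42 and 7.83 in control IgG cells, against 8.40, 8.55 and 8.51 in primed cells, so that 1 control IgG array lay within the primed range. Eif2s3y was low with control IgG and high in the primed group, and its part in these values was not tested.

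In CD4+ cells of orally tolerised mice, mitotic kinesins were also lower than in primed mice. Of 9 mitotic kinesins tested, 6 were lower and none was higher (median -0.89), and 4 of 20 centromere proteins were lower (median -0.29), where 14.7% of all genes were called, 6.24% higher and 8.43% lower. Kif23 had log2 levels of 6.30, 7.27 and 7.01 in tolerised cells, against 8.09, 8.24 and 7.84 in primed cells. Tolerised replicate 1 was the lowest, no array overlapped, and the difference was -1.20 ± 0.20 (adjusted p = 0.0017). Kif11 had 7.29, 7.75 and 7.32 in tolerised cells, against 8.40, 8.55 and 8.51 in primed cells (difference -1.04 ± 0.21, adjusted p = 0.0057). Kif18b (-1.15), Kif22 (-0.95), Kif4 (-0.89) and Kif20a (-0.80) were lower too. Cenpe fell by 1.18, Cenpf by 1.06, Cenpk by 0.72 and Cenps by 0.51 on the log2 scale. The calls of Cenpk and Cenps were both lost without tolerised replicate 1 or 3 or primed replicate 1, and that of Cenps also without primed replicate 2 or 3, with adjusted p up to 0.0699 for Cenpk and 0.089 for Cenps.

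Of 11 transport kinesins, 10 were not called. Kif13a, which passed the filter mainly through the unimmunised arrays, had 4.39, 4.63 and 4.20 in tolerised cells, against 4.11, 3.79 and 3.99 in primed cells (0.44, adjusted p = 0.032). All but 1 of these 6 values lay below the array medians, so a difference between levels above background is not shown. The p also missed the threshold with the replicate block, with quantile normalisation, and without primed replicate 2 or 3 or tolerised replicate 1 or 2. Of the 30 kinetochore and spindle partners, 20 were lower (median -0.73). Mast cell markers averaged 6.92, 6.94 and 4.60 on the tolerised arrays and 2.96 to 3.21 on the primed arrays, natural killer markers 6.76 to 7.55 and 5.79 to 6.05, and macrophage markers 4.54 to 6.05 and 3.97 to 4.10. The tissue differed too, and a priming dose of OVA was listed for primed mice and none for tolerised mice. The part of these in the result was not tested.

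Abatacept and oral tolerance were then set against each other. In abatacept cells 5 of 9 mitotic kinesins were lower than in tolerised cells and none was higher (median -0.62), and 7 of 20 centromere proteins were lower and 1 was higher, where 7.54% of all genes were higher and 15.8% lower. Kif11 differed by -1.90 ± 0.21 (adjusted p = 4.0e-05), Kif22 by -1.51, Kif20a by -1.09, Kif18b by -1.07 and Kif4 by -0.56. Cenpe differed by -1.89, Cenpf by -1.82 and Cenph by -1.25, followed by Cenpk (-0.96), Cenpw (-0.92), Cenpv (-0.79) and Cenps (-0.70). Cenpj, a protein of centrioles and not of the centromere, was the member higher with abatacept (0.49, adjusted p = 0.029). Each of the calls of Cenpj, Kif4 and Cenpv was lost without any 1 of 3 arrays: abatacept replicate 1 or 2 or tolerised replicate 1 for Cenpj (adjusted p up to 0.126), abatacept replicate 2 or 3 or tolerised replicate 2 for Kif4 (up to 0.0658), and abatacept replicate 3 or tolerised replicate 1 or 2 for Cenpv (up to 0.143). Eif2s3y averaged 2.60 in abatacept cells and 8.89 in tolerised cells, and mast cell markers averaged 4.02, 3.04 and 3.31 on the abatacept arrays and 6.92, 6.94 and 4.60 on the tolerised arrays. The tissue differed too, and a priming dose of OVA was listed for abatacept mice and none for tolerised mice. The part of all these in the result was not tested.

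Outside these classes, Kif5c, a conventional kinesin heavy chain known mainly from neurons, had log2 levels of 5.01, 4.74 and 4.69 in abatacept cells, against 5.96, 6.09 and 5.45 in tolerised cells. The tolerised arrays were all higher, and the difference was -1.02 ± 0.15 (adjusted p = 0.00032). Kif13a differed by -0.85, with all but 1 of the 6 values below the array medians, and Kif21b by 0.43.

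In primed against unimmunised CD4+ cells, no mitotic kinesin was called of 9 tested (median -0.32, 1 lower at an unadjusted p under 0.05), 9 of 20 centromere proteins were lower (median -0.34), and 6 of 11 transport kinesins were higher and 3 lower, where 47.4% of all genes were called, 23.3% higher and 24.2% lower. The comparison takes in the unimmunised arrays with their neutrophil, erythroid and macrophage transcripts, and Eif2s3y was high in primed and tolerised cells and low in unimmunised cells. Their part in this and the next comparisons was not tested, and the tissue cannot be told apart from priming. Kif11 had log2 levels of 8.40, 8.55 and 8.51 in primed cells, against 8.81, 8.58 and 8.99 in unimmunised cells (difference -0.31 ± 0.21, adjusted p = 0.26). Cenpe (-0.05) and Kif23 (0.05) were near 0. Cenph, by contrast, had 6.41, 6.39 and 6.30 in primed cells, against 8.10, 7.67 and 8.22 in unimmunised cells. The groups stood apart without overlap, by -1.63 ± 0.20 (adjusted p = 1.9e-05). Cenpv (-1.72), Cenpk (-1.47), Cenpw (-1.22), Cenpp (-0.92), Cenpn (-0.88), Cenpo (-0.52), Cenpx (-0.41) and Cenps (-0.37) were lower as well.

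Among the transport kinesins, Kif5c (0.69), Kif3c (0.56), Kif3b (0.50), Kif1c (0.48), Kif1b (0.28) and Kif5b (0.23) were higher in primed cells. The call of Kif1b was lost without any 1 array but primed replicate 3 (adjusted p up to 0.104). Kif13a, a motor of endosomes, had log2 levels of 4.11, 3.79 and 3.99 in primed cells, against 5.58, 5.50 and 5.66 in unimmunised cells (difference -1.62 ± 0.13, adjusted p = 2.2e-07). Only the unimmunised values were above the array medians. Kif3a (-0.63) and Kif13b (-0.38) were lower too. The count of higher transport kinesins fell to 3 without unimmunised replicate 2, primed replicate 1 or primed replicate 2. Among the other kinesins, Kif21b (0.57) and the ciliary Hedgehog regulator Kif7 (0.36) were higher, and Kif24, which acts at centrioles (-1.08), and Kif26a (-0.45) were lower. Another probe set of Kif24 gave -0.28 without a call.

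In tolerised and in abatacept cells, all 9 mitotic kinesins tested were lower than in unimmunised cells, with medians of -1.16 and -1.76. Of 20 centromere proteins 14 were lower in tolerised cells, and in abatacept cells 13 were lower and 1 was higher. Over all genes 57.9% were called in abatacept cells, 23.4% higher and 34.5% lower, and 49.5% in tolerised cells, 20.3% higher and 29.3% lower. These comparisons share the unimmunised arrays. Kif11 averaged 5.56 in abatacept cells (difference -3.24) and 7.45 in tolerised cells, against 8.79 in unimmunised cells. Cenph averaged 4.62 in abatacept cells (difference -3.37) and 5.87 in tolerised cells, against 8.00 in unimmunised cells. The transport kinesins went both ways, with 3 higher and 3 lower in tolerised cells and 3 higher and 4 lower in abatacept cells.

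**Figure D4:**
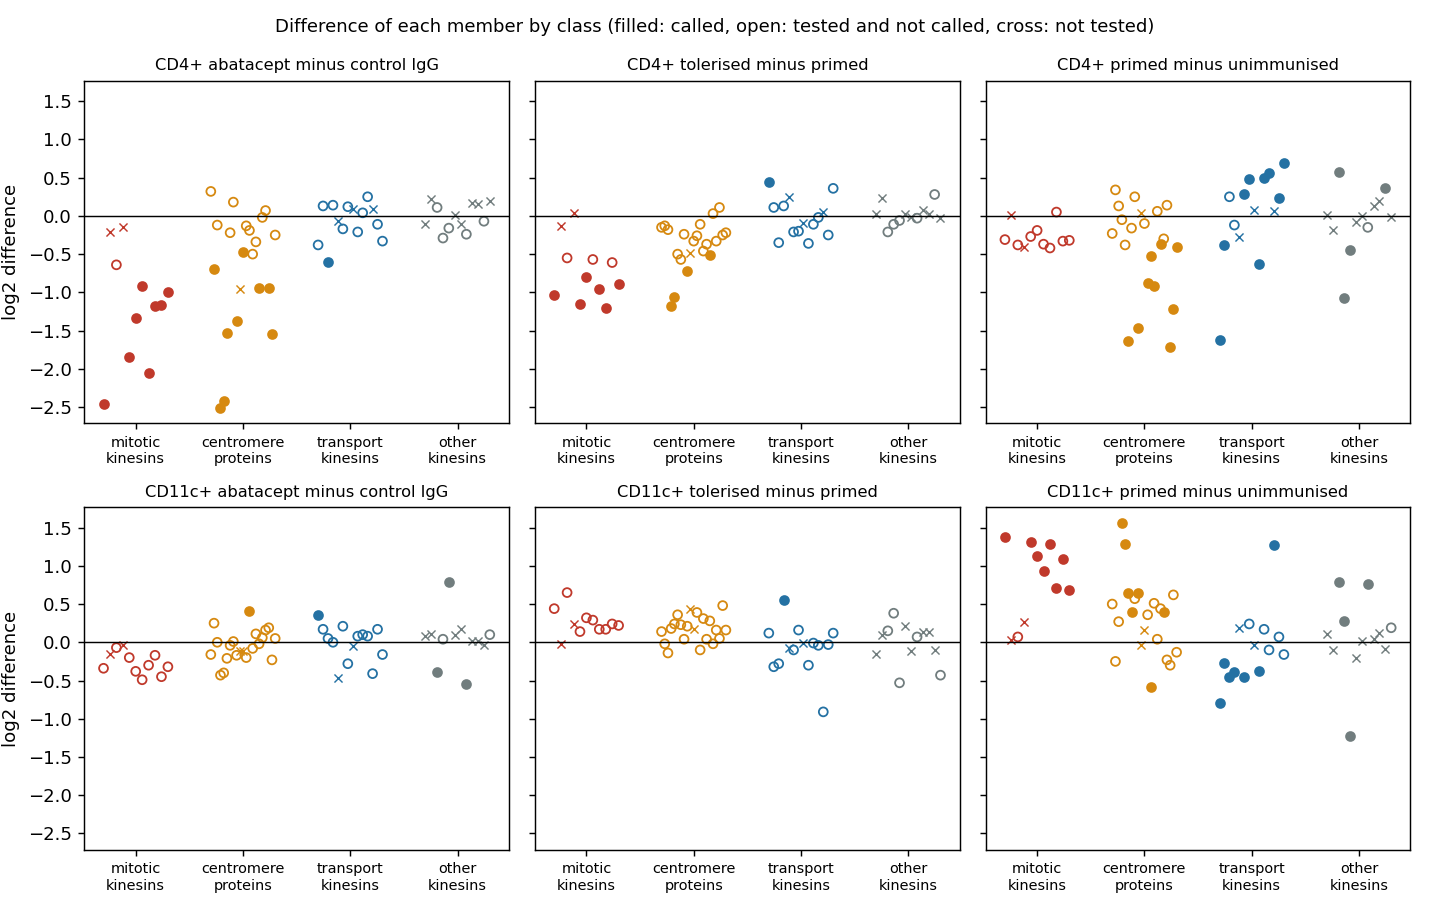
Log2 difference of each member by class (filled, called; open, not called; cross, not tested) in CD4+ and CD11c+ cells for abatacept minus control IgG, tolerised minus primed and primed minus unimmunised. The 9 tested mitotic kinesins had medians of -1.18, -0.89 and -0.32 in CD4+ cells, and of -0.32, 0.24 and 1.09 in CD11c+ cells.

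In CD11c+ cells the mitotic members were higher in primed and in tolerised mice than in unimmunised ones. In primed against unimmunised cells 8 of 9 mitotic kinesins were higher and none was lower (median 1.09), and of 19 centromere proteins 6 were higher and 1 was lower (median 0.40), where 38.6% of all genes were called, 25.5% higher and 13.2% lower. Kif11 had log2 levels of 7.56, 7.41 and 7.67 in primed cells, against 6.10, 5.96 and 6.45 in unimmunised cells. All primed arrays lay above all unimmunised arrays, by 1.38 ± 0.18 (adjusted p = 0.00011). Cenpe had 7.97, 7.63 and 7.83 in primed cells, against 6.31, 5.99 and 6.46 in unimmunised cells (difference 1.56 ± 0.21, adjusted p = 0.00011). Kif18b (1.31), Kif22 (1.29), Kif20a (1.13), Kif2c (1.09), Kif20b (0.93), Kif23 (0.71) and Kif4 (0.69) were higher, as were Cenpf (1.28), Cenph (0.64), Cenpk (0.64), Cenpi (0.40) and Cenpt (0.40). Unimmunised Kif18b and Kif2c averaged 3.99 and 4.01, below the array medians. Of 30 kinetochore and spindle partners, 21 were higher and none was lower (median 0.73). Neutrophil markers averaged 9.60 to 9.88 on the primed arrays and 6.63 to 7.83 on the unimmunised arrays, and dendritic cell markers 8.09 to 8.19 and 6.76 to 6.99. In the same order, the T cell markers Cd3e averaged 7.78 and 7.22 and Cd4 8.79 and 8.08. Eif2s3y was high in primed cells and low in unimmunised cells. The part of these in the result was not tested. Without unimmunised replicate 2, an array high in Amy1, 3 centromere proteins were higher, and the call of Cenpk was lost there and without unimmunised replicate 1 or primed replicate 1 or 3 (adjusted p up to 0.069). The calls of Kif23 and Cenpi were lost without unimmunised replicate 2 or 3 or primed replicate 1 or 3 (limma adjusted p up to 0.186 and 0.147). That of Cenpt was lost without unimmunised replicate 2 or primed replicate 2 (up to 0.104).

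The transport kinesins went the other way: 6 of 12 were lower in primed CD11c+ cells and 1 was higher (median -0.22). Kif13a had log2 levels of 5.82, 6.24 and 6.18 in primed cells, against 6.96, 6.84 and 6.80 in unimmunised cells (difference -0.79 ± 0.11, adjusted p = 0.00014). Kif16b (-0.45), Kif1b (-0.45), Kif17 (-0.39), Kif3a (-0.38) and Kif13b (-0.27) were lower too, and the count was 3 without unimmunised replicate 2 or 3 and 2 without primed replicate 3. Kif5a, known mainly from neurons, was higher (1.27, adjusted p = 0.011). The other kinesins Kif21b (0.79), Kif2a, which depolymerises microtubules (0.76), and Kif24 (0.28) were higher. The call of Kif24 was lost without primed replicate 2 or 3 or unimmunised replicate 3 (adjusted p up to 0.149), and another of its probe sets gave -0.08 without a call. Kif26a, a kinesin-like protein that binds microtubules without walking on them, had 6.36, 6.35 and 6.20 in primed cells, against 7.55, 7.26 and 7.75 in unimmunised cells (difference -1.22 ± 0.23, adjusted p = 0.0012). Quantile normalisation lowered the share of higher calls over all genes from 65.9% to 54.4%, and gave 15 members higher and 10 lower in place of 18 and 8.

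Tolerised CD11c+ cells likewise had higher mitotic kinesins than unimmunised ones. All 9 mitotic kinesins tested were higher (median 1.33), with 12 of 19 centromere proteins higher and 1 lower (median 0.62), and 1 of 12 transport kinesins higher and 5 lower, where 48.6% of all genes were called, 31.9% higher and 16.7% lower. Kif11 had log2 levels of 8.25, 7.53 and 8.17 in tolerised cells, against 6.10, 5.96 and 6.45 in unimmunised cells (difference 1.81 ± 0.18, adjusted p = 7.4e-06). Tolerised replicate 2 was the lowest of its group and still above all unimmunised arrays. Kif16b (-0.74), Kif3a (-0.68), Kif13a (-0.67), Kif13b (-0.59) and Kif1b (-0.55) were lower, and Kif26a was lower by a log2 difference of -1.75. The neutrophil marker Camp averaged 11.54 on the tolerised arrays and 8.18 on the unimmunised arrays. In the same order, the T cell marker Cd3e averaged 8.22 and 7.22, and the natural killer cell marker Ncr1 7.74 and 6.60. The macrophage marker Csf1r averaged 9.13 and 10.33, and the erythroid markers Klf1 6.10 and 5.50 and Slc4a1 9.56 and 10.09. The part of these cells in the result was not tested. Without the arrays high in Amy1, 6 mitotic kinesins and 6 centromere proteins were higher. The call of Kif1c (0.41) was lost without any 1 of the 6 arrays. Between tolerised and primed CD11c+ cells the 1 member called was Kif17 (0.55), where 2.84% of all genes were called, 1.39% higher and 1.45% lower, and the call was lost without tolerised replicate 3 or any 1 primed array. Between control IgG and primed CD11c+ cells no member was called and 2 of 10203 genes were (0.0196%, limma), with 4 members and 10.2% of all genes at an unadjusted p under 0.05.

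Abatacept against control IgG left the mitotic kinesins of CD11c+ cells without a call. None of 9 was called (median -0.32, 1 lower at an unadjusted p under 0.05), where 15.3% of all genes were, 6.43% higher and 8.86% lower. Kif11 had log2 levels of 6.78, 7.13 and 7.20 with abatacept, against 7.27, 7.34 and 7.52 with control IgG. The groups did not overlap, and the difference was -0.34 ± 0.18 (adjusted p = 0.24). Cenpe differed by -0.43 and Cenpf by -0.40 without a call. The 5 members called were of other kinds. Kif2a (-0.55, adjusted p = 0.0025) and Kif21b (-0.39, adjusted p = 0.010) were lower, and Kif26a (0.79, adjusted p = 0.034), Kif13a (0.36, adjusted p = 0.041) and Cenpo (0.41, adjusted p = 0.0498) were higher. Kif26a had 7.98, 7.57 and 7.67 with abatacept, against 6.70, 7.35 and 6.80 with control IgG, and its control IgG replicate 2 stood nearest the abatacept arrays. With any 1 of control IgG replicates 1 and 3 or the abatacept replicates left out, 2 members were called, and none was without the arrays high in Amy1. That fit leaves 1 control IgG array, which is assumed to vary like the other groups, and a missed threshold there does not show that the values did not differ. Eif2s3y was low with abatacept and higher with control IgG, at 5.92 on control IgG replicate 2 against 8.76 and 8.20 on replicates 1 and 3. Its part in these calls was not tested.

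In abatacept against unimmunised CD11c+ cells, 4 members were higher, Kif18b (1.01), Kif11 (0.87), Kif22 (0.79) and Cenpe (0.91), where 2.34% of all genes were called, 2.10% higher and 0.245% lower. That count fell to 1 without abatacept replicate 2 or 3 or unimmunised replicate 1 or 2, and to 0 without the arrays high in Amy1. Against tolerised cells, 8 of 9 mitotic kinesins were lower (median -0.72), with 4 centromere proteins lower and 1 higher and 4 of 12 transport kinesins higher, where 37.5% of all genes were called, 16.6% higher and 20.9% lower. Kif11 differed by -0.95 and Kif2c by -1.13, and Kif3a (0.83), Kif13a (0.66), Kif13b (0.63) and Kif1b (0.38) were higher. Kif26a had 7.98, 7.57 and 7.67 in abatacept cells, against 5.24, 5.83 and 6.25 in tolerised cells (difference 1.97 ± 0.23, adjusted p = 3.6e-05). Without abatacept replicate 1 or tolerised replicate 3, 5 mitotic kinesins were lower.

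The abatacept effect was tested for a difference between the cell types. CD4+ cells came from axillary nodes and CD11c+ cells from pooled nodes and spleen, so cell type and tissue cannot be told apart here. On all 30 arrays, 16 members had a difference of effects past the threshold, 15 of them lower in CD4+ cells, where 4.97% of all genes were higher and 9.29% lower. They were 4 mitotic kinesins (Kif11, Kif22, Kif18b and Kif20a), 9 centromere proteins, 1 transport kinesin and 2 other kinesins. For Kif11, the effect of abatacept was -2.46 in CD4+ cells and -0.34 in CD11c+ cells, a difference of -2.12. Eif2s3y was low in both CD4+ groups, while in CD11c+ cells it was low with abatacept and high with control IgG. Its part in the difference of effects was not tested. Without the 5 CD11c+ arrays high in Amy1, which leaves 1 control IgG CD11c+ array that is assumed to vary like the other groups, 10 of the 16 were called. The other 6 kept their sign: the difference of effects was then -1.18 for Cenpk, -1.08 for Cenph, -1.07 for Cenpv, -0.78 for Kif20a, -0.76 for Cenpw and 0.55 for Kif21b, against -1.22, -1.32, -1.13, -0.96, -1.32 and 0.50 on all arrays.

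Averaged over the 5 groups, CD4+ cells had higher levels than CD11c+ cells in 7 of 9 mitotic kinesins and lower levels in none, and higher levels in 3 and lower levels in 9 of 12 transport kinesins, where 83.0% of all genes differed, 45.9% higher and 37.1% lower. By treatment group, all 9 mitotic kinesins were higher in CD4+ cells of unimmunised mice (median 2.07) and 6 in primed mice (0.65), and 2 in control IgG mice (0.40). In abatacept mice 6 were lower in CD4+ cells and none was higher (-0.56), and in tolerised mice 7 were lower (-0.53). The share of all genes called in these groups was 66.4%, 63.2%, 65.7%, 68.7% and 60.1%. The unimmunised CD4+ arrays, which also enter the average over the 5 groups, held the neutrophil, erythroid and macrophage transcripts given above. Eif2s3y averaged 8.89 in CD4+ and 2.62 in CD11c+ cells of tolerised mice, and 2.51 and 7.63 in those of control IgG mice. It was alike between the cell types in the other groups. The part of those transcripts and of Eif2s3y in these differences was not tested. Tissue differed between the cell types in all groups but the unimmunised, so cell type and tissue cannot be told apart in those groups.

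Some members, kinesins other than the mitotic ones and centromere proteins, differed between the cell types in the same direction in every group. Tissue differed there too except in unimmunised mice, and Eif2s3y differed in tolerised and control IgG mice. Kif21b had a lowest log2 level of 8.55, a highest of 9.61 over the 15 CD4+ arrays, and 6.92 and 8.05 over the 15 CD11c+ arrays, with no overlap (mean difference 1.64 ± 0.04, adjusted p = 5.2e-21). Kif13a lay between 3.33 and 5.66 on CD4+ arrays and between 5.82 and 6.96 on CD11c+ arrays (-2.21 ± 0.05, adjusted p = 1.3e-21), and in CD4+ cells only the unimmunised group was above the array medians on all 3 arrays. Kif9 (-1.83) and Kif5a (-1.60) were below the median on all 15 CD4+ arrays, so their CD4+ levels are not shown to be above background. Of the members above the median on all 30 arrays, Kif13b, Kif26a and Cenpo were lower in CD4+ cells in each of the 5 groups, and Kif21b, Cenpt and Cenpq were higher. Kif13a, Kif5a and Kif9 were also called lower in each, but passed the filter mainly or only through the CD11c+ arrays. Of 47 members, 3 were higher in CD4+ cells in all 5 groups (6.38%, against 15% of 10838 genes) and 6 were lower (12.8%, against 16.3%). In different groups 18 members were called in both directions (38.3%, against 11.8% of all genes). Kif5c (0.66), Kif3c (0.43) and Kif5b (0.22) were the transport kinesins higher in CD4+ cells.

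**Figure D5:**
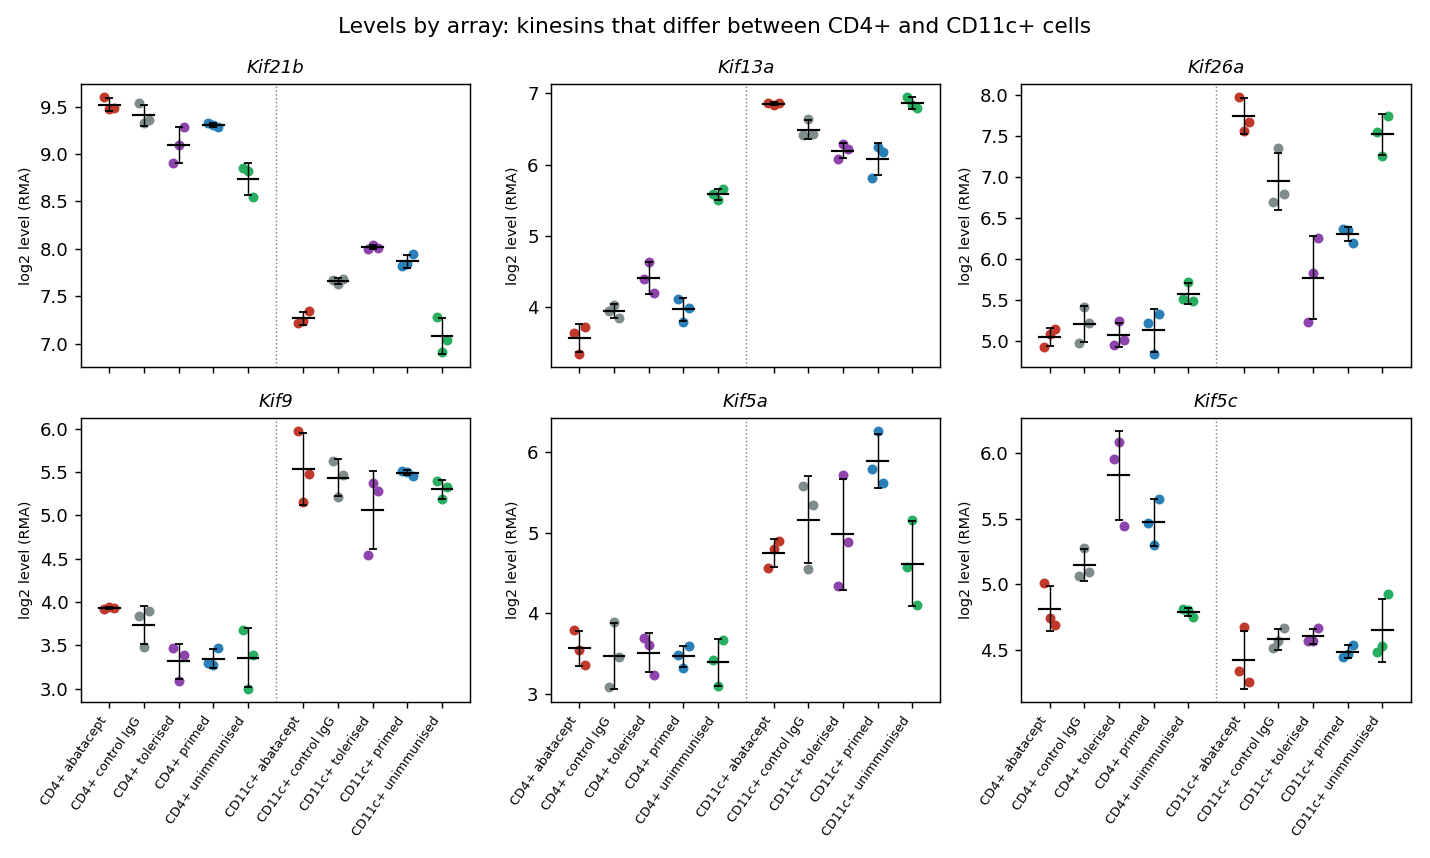
Log2 level on each array (points) with the group mean ± SD (n = 3) for Kif21b, Kif13a, Kif26a, Kif9, Kif5a and Kif5c, by treatment group, CD4+ cells left of CD11c+ cells. Kif21b averaged 8.74 to 9.52 in the CD4+ groups and 7.08 to 8.02 in the CD11c+ groups, and Kif26a varied between treatments mainly in CD11c+ cells, with means of 7.74 in abatacept mice and 5.77 in tolerised mice.

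The members that passed the filter in neither cell type were Cenpl, the mitotic kinesins Kif14 and Kif18a, the transport kinesins Kif1a and Kif28, and Kif2b, Kif6, Kif12, Kif21a, Kif26b and Kif27. Their means over the 30 arrays ran from 2.24 for Kif2b to 3.755 for Cenpl, below the array medians. Kif5a and Kif9 were left out in CD4+ cells only, and Cenpm and Kif7 in CD11c+ cells only. Without the filter, Cenpl averaged 3.05 in abatacept CD4+ cells and 4.01 in control IgG CD4+ cells.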

How the data were processed

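RNA of 30 samples (10 groups of 3) was measured on Affymetrix mouse arrays, 50 ng total RNA each being amplified with a NuGEN kit per the labels' protocols. The deposited values are log2 values made by the authors with RMA, per the submitters' processing notes; its version was not given in the sources used here. They span 1.667 to 13.242 over 45118 probe sets. No counts lie behind array values, so the number of arrays limits the precision.

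Genes were named through the platform annotation: 28898 probe sets had 1 symbol, 551 had several and 15669 had none, and each gene took its probe set with the highest mean (32 of the 58 members had more than 1, 117 probe sets in all). The symbols of all 58 members equalled RefSeq's. limma 3.58.1 (R 4.3.3; lmFit, eBayes, two-sided, Benjamini-Hochberg) was fitted to the 15 arrays of each cell type, and for cell type differences to all 30 arrays (10838 genes). Tables and figures were made with Python 3.11.15 and matplotlib 3.10.9. Tested on simulated data for CD4+ abatacept minus control IgG (10322 genes), the procedure recovered 100% of changes of -2, 96% of -1 and 44% of -0.5 on the log2 scale, with 2.37% false calls among 169.

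All members were accounted for by class. The plan for each comparison was to name called members by adjusted p, up to 8 mitotic kinesins, 8 centromere proteins and 8 each of the transport and other kinesins. A fixed set of 13 members whatever their call, and up to 4 partner genes by adjusted p, were to be added. The text does not name all of these in every comparison, and in places it names others. A member left unnamed is therefore not shown to be unchanged. The members and lists were chosen with earlier results of these data known. Same-numbered replicates did not deviate together (correlations from -0.199 to 0.214 over 14 comparisons), so the fits have no replicate block. Alternatives were quantile normalisation, no filter, the mean of all probe sets, only the groups compared, array weights, a replicate block and leaving out each array, and, added after seeing the data, leaving out the unimmunised CD4+ arrays or the CD11c+ arrays high in Amy1.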

Additional observations from a re-analysis of the deposited data

Results flagged for a closer look

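Effects of the same treatment were set against each other between the cell types, with a test of the difference itself over all 30 arrays. Listed are the members called in opposite directions in CD4+ and CD11c+ cells with a called difference, and, for abatacept minus control IgG, all members with a called difference. Each value is the log2 effect in CD4+ cells minus that in CD11c+ cells, and all had a limma adjusted p under 0.05. Contrasts that share a group share its arrays. Tissue differed between the cell types too, except in unimmunised mice.

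For abatacept minus control IgG, the kinetochore motor and matrix proteins Cenpe (-2.08) and Cenpf (-2.01) and the spindle and chromosome motors Kif11 (-2.12), Kif22 (-1.75), Kif18b (-1.64) and Kif20a (-0.96) had lower effects in CD4+ cells, where 14.3% of all 10838 genes had a called difference. The inner centromere proteins Cenph (-1.32), Cenpw (-1.32), Cenpk (-1.22), Cenpv (-1.13), Cenpb (-0.94), Cenps (-0.92) and Cenpo (-0.60) did as well, as did Kif26a (-0.95) and the endosome motor Kif13a (-0.74). Kif21b, a regulator of microtubule growth, was the 1 member with a higher effect in CD4+ cells (0.50). Control IgG CD11c+ replicates 2 and 3 were high in Amy1, and 10 of these 16 were called without the 5 arrays high in it, which leaves 1 control IgG array. Kif13a in CD4+ cells lay below the array medians on all 6 of these arrays, and the abatacept mean of Cenpw in CD4+ cells lay below them too. In CD4+ cells Eif2s3y averaged 2.60 with abatacept and 2.51 with control IgG, and in CD11c+ cells 2.53 and 7.63. Its part in the difference of effects was not tested.

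For tolerised minus unimmunised, mitotic kinesins were lower in CD4+ cells and higher in CD11c+ cells, where 49.0% of all genes had a called difference, and 11.1% were called in opposite directions as well. Of 47 members, 34 had a called difference and 20 were called in opposite directions. The difference of effects was -3.16 for Kif11, -2.87 for Kif18b, -2.84 for Kif22, -2.44 for Kif20a, -2.27 for Kif2c, -2.16 for Kif20b, -2.12 for Kif4, -2.04 for Kif23 and -1.65 for Kif15. Among the centromere proteins it was -3.12 for Cenph, -3.04 for Cenpk, -2.97 for Cenpe, -2.97 for Cenpf, -2.56 for Cenpw, -2.19 for Cenpp, -1.89 for Cenpn, -1.60 for Cenps, -1.35 for Cenpi and -1.01 for Cenpa. The centriolar kinesin Kif24 had -1.85, but another of its probe sets gave -0.41 in CD4+ cells and -0.14 in CD11c+ cells, neither called. For Cenpp, the effect in CD11c+ cells was 0.81 on the probe set used and 0.26 without a call on another. Cenpi and Cenpn were above the array median on 3 of the 15 CD11c+ arrays, Kif15 on 5 and Cenpw on 6. Their CD11c+ levels are therefore largely not shown to be above background. The CD4+ tissue differed between these groups, and the unimmunised CD4+ arrays held the neutrophil, erythroid and macrophage transcripts given above. Eif2s3y averaged 8.89 in tolerised and 2.56 in unimmunised CD4+ cells, and 2.62 and 2.59 in CD11c+ cells. Its part in the difference of effects was not tested. Without the arrays high in Amy1 the difference of effects was called for all 20, and 13 of the 20 were still called higher in CD11c+ cells.

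Differences were called for 50.0%, 41.9% and 27.6% of all genes in the 3 contrasts that follow, and 0.941%, 7.27% and 3.58% were called in opposite directions as well. For abatacept minus unimmunised, Kif11 (-4.11), Cenpe (-4.03), Kif22 (-3.67) and Kif18b (-3.50) were lower in CD4+ cells and higher in CD11c+ cells. For primed minus unimmunised, Cenph (-2.26), Cenpk (-2.11) and Kif24 (-1.36) were lower in CD4+ cells and higher in CD11c+ cells, and the organelle motor Kif1b (0.73) was higher in CD4+ cells and lower in CD11c+ cells. For abatacept minus tolerised, Kif21b (1.18) was higher in CD4+ cells and lower in CD11c+ cells, and Kif13a (-1.50) was lower in CD4+ cells, where all but 1 of the 6 values lay below the array medians, and higher in CD11c+ cells. Eif2s3y averaged 2.60 in abatacept and 8.89 in tolerised CD4+ cells, and 2.53 and 2.62 in CD11c+ cells. Its part in the difference of effects was not tested. The CD11c+ calls of Cenpk and Kif24 and the CD4+ call of Kif1b for primed minus unimmunised were each lost without single arrays, and another probe set of Kif24 gave -0.08 in CD11c+ cells without a call. Without the arrays high in Amy1 the difference of effects was called for these 10, while the CD11c+ call was lost for all 4 members of abatacept minus unimmunised and for Cenpk and Kif24 in primed minus unimmunised.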

How the results depend on the processing

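Over the 14 treatment comparisons, the number of members called without any 1 array ranged as follows in CD4+ cells: 16 to 19 for primed minus unimmunised, 30 to 32 for tolerised minus unimmunised, 8 to 15 for tolerised minus primed, 0 for control IgG minus primed, 14 to 21 for abatacept minus control IgG, 31 to 34 for abatacept minus unimmunised and 14 to 17 for abatacept minus tolerised. In CD11c+ cells the ranges were 18 to 24, 28 to 31, 0 to 3, 0, 2 to 5, 1 to 4 and 16 to 26 in the same order. They were 37 to 39 for CD4+ minus CD11c+ and 13 to 19 for the difference of the abatacept effect between cell types. Of the main counts, that of CD11c+ tolerised minus primed (1) became 0 with only the groups compared, 3 with array weights, 0 with the replicate block and 0 without the arrays high in Amy1. CD11c+ control IgG minus primed (0) became 1 with array weights. CD11c+ abatacept minus control IgG (5) became 8 with only the groups compared, 3 without the filter and 0 without the arrays high in Amy1. CD11c+ abatacept minus unimmunised (4) became 2 with the mean of all probe sets and 0 without the arrays high in Amy1. The difference of the abatacept effect (16) became 10 without the arrays high in Amy1. The cause of these was not tested, except that leaving out arrays leaves fewer. The replicate block changed no other count of all members by over 1.5 times, and by class it took Kif13a out of CD4+ tolerised minus primed (1 transport kinesin called higher without it, 0 with it) and Cenpo out of CD11c+ abatacept minus control IgG. It left 18 members called for CD4+ abatacept minus control IgG, the same number as without it, and 20 against 22 for CD4+ primed minus unimmunised. Differences that turned in sign were not called: in CD4+ primed minus unimmunised, Kif23 ranged from -0.107 to 0.154 and Cenpe from -0.131 to 0.095 without single arrays, and Cenpa in CD4+ abatacept minus control IgG was -0.285 as the mean of all probe sets. Of 243 called gene results, 233 kept their call with quantile normalisation, 230 without the filter, 238 with array weights and 236 with the replicate block. The number was 217 of 229 with the mean of all probe sets, 193 of 215 with only the groups compared, 42 of 44 without the unimmunised CD4+ arrays and 90 of 126 without the CD11c+ arrays high in Amy1, and none turned in sign under the alternatives run. Signal over background limits members near the array medians, among them Cenpf, Cenpw, Kif18b and Kif13a in CD4+ cells. The planned reading of protein letters was not made, since no protein table was used here.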
